A study of Mus musculus with 6 samples.

Results

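Errfi1 and 9 genes of the epidermal growth factor (EGF) receptor system were followed in RNA of brain endothelial cells from mice given a convulsant or saline. The 10 genes were chosen by name, around Errfi1, because Errfi1 ranked at the top of this same comparison in earlier results of these data. All 10 were found among the 53465 genes of the count matrix. The values that led to this choice are therefore given as a description, with no test on the 10 genes. The remaining members are the receptors Egfr, Erbb2 and Erbb3, the ligands Hbegf, Tgfa and Areg, the receptor inhibitor Lrig1, the ubiquitin ligase Cbl and the adaptor Grb2.

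Both groups were male, 8 to 12 weeks old and of the genotype tie2-Cre; ai9; rpl22HA/HA, and the tissue was cortex. Tie2-Cre acts in endothelium and also in some blood cells, ai9 is a fluorescent reporter of Cre, and rpl22HA tags the ribosomes of cells that have Cre. The PBS group was injected with phosphate buffered saline and the PTZ group with pentylenetetrazol, a blocker of GABA-A receptors that provokes seizures, and each had 3 libraries, numbered 1, 2 and 4. The sources used here do not give the dose, the time from injection to collection or the step that isolated cells or ribosomes. Nor do the labels say whether each library was a separate animal, so the errors and p-values cover the spread over these libraries only, and that spread may be technical.

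In the EGF receptor system, ligands made as membrane-bound precursors are cut free by proteases and bind ErbB receptors, which pair, phosphorylate each other and recruit adaptors such as Grb2 that switch on RAS and the ERK kinases. Erbb2 has no known soluble ligand and acts as a partner, and Erbb3 has little kinase activity of its own. Signalling is held back by Cbl, which marks receptors for degradation, by Lrig1, and by Errfi1 (also called Mig6), an intracellular protein that binds the kinase domain of ErbB receptors, blocks it and promotes receptor uptake. Errfi1 transcription is known to be induced by growth factors, stress and glucocorticoids.

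Gene counts summed to 11107481 to 15406967 reads per library, so that 1 read was worth 0.0625 to 0.0993 CPM (the usual count scale relative to library size, here after TMM scaling, which levels the bulk of genes between libraries). Endothelial markers were abundant: the 12 listed markers summed to 15821 to 19476 CPM in PBS and 14339 to 21768 CPM in PTZ. The 7 neuronal markers summed to 12.5 to 40.01 CPM over the 6 libraries, while the 9 microglial and macrophage markers reached 1558 to 2822 CPM. Reads in no annotated feature made up 9.34% in PTZ library 1 and 2.99% to 5.19% elsewhere. Of 13768 genes tested with edgeR's quasi-likelihood model, 0 were called in either direction (0%) with an adjusted p threshold of 0.05. At an unadjusted p under 0.05, 528 genes were higher (3.83%) and 465 lower (3.38%) in PTZ. DESeq2 called 53 genes higher and 23 lower and limma-voom 1 and 0.

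Errfi1 (ENSMUSG00000028967, protein coding, chromosome 4, 150853919 to 150868892, plus strand, GRCm38) was the member that separated the groups most. With the libraries in the order 1, 2 and 4, here and below, it reached 10.7, 34.5 and 13.8 CPM in the PBS group, against 161, 145 and 141 CPM in the PTZ group. Every PTZ library lay above every PBS library, and the lowest PTZ value was several times the highest PBS value. The PTZ libraries were close to each other, whereas PBS library 2 stood well above the other PBS libraries. The means were 149 ± 10.6 CPM in PTZ and 19.7 ± 12.9 CPM in PBS (SD, n = 3 libraries each), a log2 fold change of 2.93 with a standard error (SE) of 0.40. By signed log2 fold change, counted from the highest in PTZ, Errfi1 was in place 7 among the 10115 genes tested with a mean of at least 5 CPM.

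The size of the Errfi1 difference depended on the PBS library it was set against. Between libraries of the same replicate number the ratio of PTZ to PBS was 15 for number 1, 4.2 for number 2 and 10.2 for number 4. The smallest of these ratios belonged to the high PBS library 2. Without PBS library 2 the log2 fold change was 3.56, and without any of the other libraries it lay between 2.63 and 2.96. Errfi1 rested on 172 to 349 reads per PBS library and 1458 to 2245 per PTZ library. No other annotated gene shares exon bases with it.

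**Figure D1:**
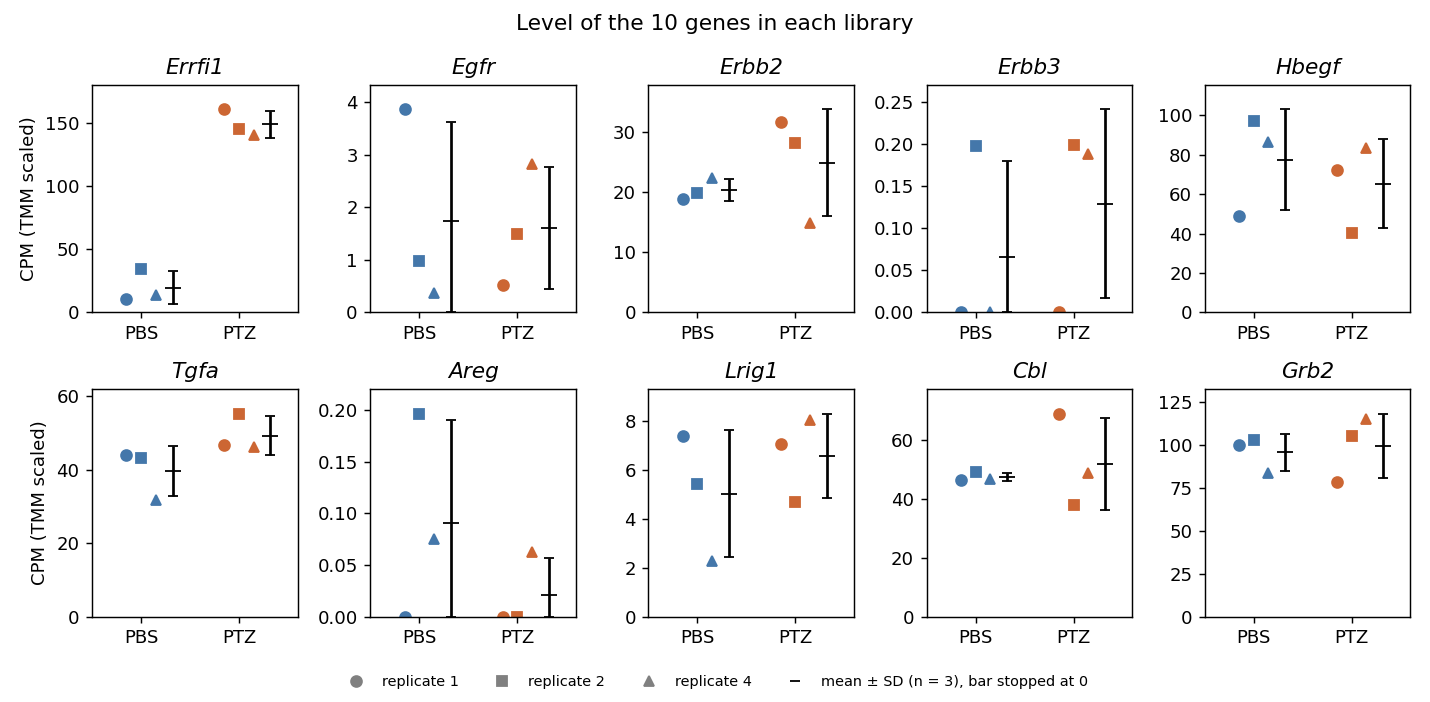
Level of each of the 10 genes in CPM (vertical axes from 0, a separate scale per gene) in the 3 PBS (blue) and 3 PTZ (orange) libraries, with symbols for the replicate number and the mean ± SD beside each group. Errfi1 lies between 10.7 and 34.5 CPM in PBS and between 141 and 161 CPM in PTZ, while the groups of every other gene overlap or, for Tgfa, nearly touch.

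Errfi1 has 2 start regions in RefSeq. The downstream start, at base 150855070, lies 3 bases from the first base of the GENCODE transcripts Errfi1-201 and Errfi1-203, and the upstream start, at 150853796, lies 123 bases from that of Errfi1-202. Counts per gene do not tell reads of these transcripts apart. Of the members, 8 had a window of 250 bases before and 50 after a start in RefSeq (GRCm38.p6), 10 windows in all. Erbb3 and Hbegf were not among them. The cyclic AMP response element (CRE, TGACGTCA, which CREB and related factors bind) was present in the downstream window of Errfi1 and in that of Areg, and in no other member window. Motifs were searched on both strands, and this one was found in 1.79% of all 32851 windows of this length.

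These are shown because Errfi1 had the largest difference of the members and Areg, the other gene with the full element, was hardly detected. The 250 bases before each start are printed 5′ to 3′ on the plus strand, for Errfi1 chr4:150854820-150855069 and for Areg chr5:91139349-91139598, and capitals mark the CRE, further copies of its core TGACG or CGTCA, and the TATA box TATAAA.
Errfi1: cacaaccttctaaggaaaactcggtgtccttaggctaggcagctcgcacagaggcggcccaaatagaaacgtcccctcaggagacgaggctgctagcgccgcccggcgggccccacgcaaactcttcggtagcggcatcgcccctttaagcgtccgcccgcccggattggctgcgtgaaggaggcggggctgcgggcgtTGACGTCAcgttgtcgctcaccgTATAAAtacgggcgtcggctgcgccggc
Areg: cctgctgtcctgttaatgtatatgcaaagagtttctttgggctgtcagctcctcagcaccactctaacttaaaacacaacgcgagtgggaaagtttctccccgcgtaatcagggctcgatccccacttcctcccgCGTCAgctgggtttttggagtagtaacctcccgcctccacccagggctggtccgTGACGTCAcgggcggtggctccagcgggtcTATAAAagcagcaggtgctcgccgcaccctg

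The element lay 51 to 44 bases before the start in Errfi1 and 61 to 54 bases before it in Areg. In both, the letters TATAAA, which were added to the search after the sequences were seen and looked for on the sense strand only, followed at 28 to 23 and 31 to 26 bases before the start. They occurred in 8.32% of all windows, counted at any position. A Grb2 window also held them, at 228 to 223 bases before the start. The 5-base core of the CRE, TGACG, is part of the full element and occurred in 20.8% of all windows on either strand. This core was also found in the Erbb2 window. The Cbl window held an EGR site (GCGGGGGCG, in 2.91% of windows). The upstream window of Errfi1 held none of the motifs searched. Neither Errfi1 window held the EGR letters GCGTGGGCG (0.612% of windows), the AP-1 site TGACTCA (5.2% of windows), the glucocorticoid receptor core AGAACA (19% of windows), the E-box CACGTG (7.15%), the NF-kB letters GGGACTTTC (0.353%) or a CArG box (1.63%). A match is a description of letters in these windows, and nothing about binding was measured.

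Of the receptors, Erbb2 was measured at a moderate level, Egfr was near the lower limit of the data and Erbb3 was hardly detected. Erbb2 (ENSMUSG00000062312, chromosome 11, 98412470 to 98437716, plus strand) stood at 18.9, 19.8 and 22.4 CPM in PBS and 31.6, 28.2 and 14.8 CPM in PTZ. PTZ libraries 1 and 2 were the highest and PTZ library 4 the lowest of all 6, so the groups overlapped. The log2 fold change was 0.28 (SE 0.33), and without PTZ library 1 it was 0.07. Egfr (ENSMUSG00000020122, chromosome 11, 16752203 to 16918158, plus strand), the receptor of all 3 ligands followed here, stood at 3.87, 0.987 and 0.378 CPM in PBS and 0.512, 1.49 and 2.82 CPM in PTZ, from 5 to 62 reads per library. Its log2 fold change of -0.13 (SE 1.05) had no stable sign: it was 1.24 without PBS library 1 and -0.82 without PTZ library 4. Erbb3 had 2 reads in all PBS libraries together and 5 in the PTZ libraries, at most 3 in any library, and did not pass the filter on low counts.

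The libraries with most Egfr were also those with most Slc1a2. The sum of the other 6 listed markers of astrocytes, which are known to express Egfr, did not follow that order. Slc1a2, a glutamate transporter gene of astrocytes, was singled out from the 7 listed markers after its values were seen. It stood at 96.9, 10.4 and 17.9 CPM in PBS and 17.1, 29.98 and 103 CPM in PTZ. PBS library 1 and PTZ library 4 were highest for both genes. Slc1a2 made up most of the sum of the 7 listed astrocyte markers in these libraries (137 and 165 CPM, against 46.9 to 79.6 CPM elsewhere). The other 6 markers summed to 39.8, 36.5 and 47.8 CPM in PBS and 62.4, 33.1 and 62.5 CPM in PTZ, where PBS library 1 did not stand out. Taken singly, these markers were mixed. Aldh1l1 was highest in PTZ library 2 (2.68 CPM) and PBS library 1 (2.5 CPM), and S100b in PTZ library 4 (10.2 CPM). Slc1a3 was highest in PTZ library 1 (43.6 CPM), Gja1 in PBS library 2 (19.2 CPM) and Gfap in PTZ library 2 (4.67 CPM). None of the 7 was at 0 in all libraries. Aqp4, the water channel of astrocytes, was low, at 0.0756 to 1.09 CPM, and highest in PBS library 2. The part of astrocyte RNA in the Egfr values was not tested.

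**Figure D2:**
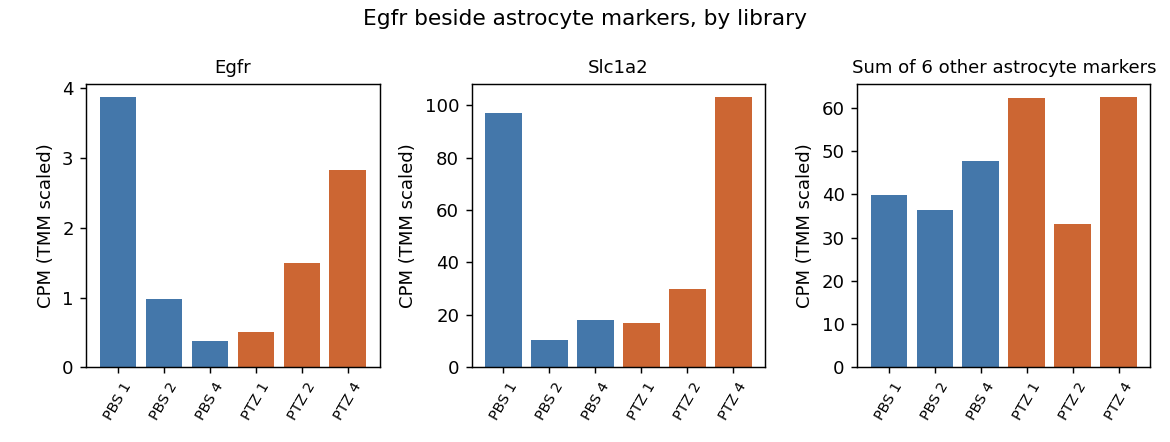
Egfr, the astrocyte gene Slc1a2 and the sum of the other 6 astrocyte markers of the list, in CPM (vertical axes from 0), with a bar for each PBS (blue) and PTZ (orange) library. PBS library 1 and PTZ library 4 are the highest for Egfr, at 3.87 and 2.82 CPM, and for Slc1a2, but PBS library 1 is not high in the sum of the other markers.

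Hbegf and Tgfa were the ligand genes with clear levels. Hbegf (ENSMUSG00000024486, chromosome 18, 36504927 to 36515805, minus strand), which encodes heparin-binding EGF-like growth factor, stood at 48.8, 97.4 and 86.5 CPM in PBS and 72.5, 40.1 and 83.3 CPM in PTZ. The groups overlapped over most of their range, and the pairs of equal number went different ways, with ratios of PTZ to PBS of 1.48, 0.412 and 0.963. Its log2 fold change was -0.25 (SE 0.33). Tgfa (ENSMUSG00000029999, chromosome 6, 86195223 to 86275719, plus strand), which encodes transforming growth factor alpha, stood at 44.1, 43.3 and 31.8 CPM in PBS and 46.6, 55.3 and 46.1 CPM in PTZ. The PTZ libraries all lay above the PBS libraries, by a narrow margin, and the ratios within pairs were 1.06, 1.28 and 1.45. The log2 fold change was 0.31 (SE 0.23). With the scaling of the authors' deposited values PBS library 1 (48.0) stood above PTZ libraries 1 (46.1) and 4 (47.8), so the separation of the groups depended on the scaling. Areg, the gene of amphiregulin, had 3 reads in all PBS libraries together and 1 in the PTZ libraries and did not pass the filter. The limit that a count of 0 allows, 3 reads, corresponds to 0.187 to 0.298 CPM in these libraries and covers counting error only.

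The groups overlapped for the other members that restrain or relay the receptors, Lrig1, Cbl and Grb2. Lrig1 (ENSMUSG00000030029, chromosome 6, 94604529 to 94700158, minus strand), a membrane protein that lowers ErbB receptor levels, stood at 7.37, 5.43 and 2.27 CPM in PBS and 7.03, 4.67 and 8.01 CPM in PTZ. PBS library 4 was the low value, and without it the log2 fold change of 0.39 (SE 0.59) became 0.01. Cbl (ENSMUSG00000034342, chromosome 9, 44142976 to 44234049, minus strand) stood at 46.5, 49.1 and 46.9 CPM in PBS and 69.1, 38.1 and 48.7 CPM in PTZ. The PBS libraries were nearly equal and lay inside the wider PTZ range (log2 fold change 0.13, SE 0.26, and -0.13 without PTZ library 1). Grb2 (ENSMUSG00000059923, chromosome 11, 115644045 to 115708597, minus strand) stood at 99.98, 103 and 83.3 CPM in PBS and 78.2, 105 and 115 CPM in PTZ. The groups overlapped, and its log2 fold change of 0.06 (SE 0.22) turned negative in 4 of 12 alternatives, the authors' scaling among them (-0.01). On exon bases, 144 of the 5585 of Lrig1 overlap Slc25a26, 118 of the 6490 of Tgfa overlap Gm43917 and 9 of the 5210 of Erbb2 overlap Mien1, each on the opposite strand. Whether the counting used strand is not stated in the labels, so reads of these stretches may belong to either gene.

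Of the 8 members that passed the filter, 2 (Errfi1 and Tgfa) were higher in each PTZ library than in any PBS library and 0 had the reverse. Over all genes tested the shares were 7.30% and 7.04%. Nothing is read from this count, since the comparison was used to choose the members. Errfi1 differed by far more than the spread within either group, whereas the log2 fold changes of the remaining members that passed lay between -0.25 and 0.39.

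**Figure D3:**
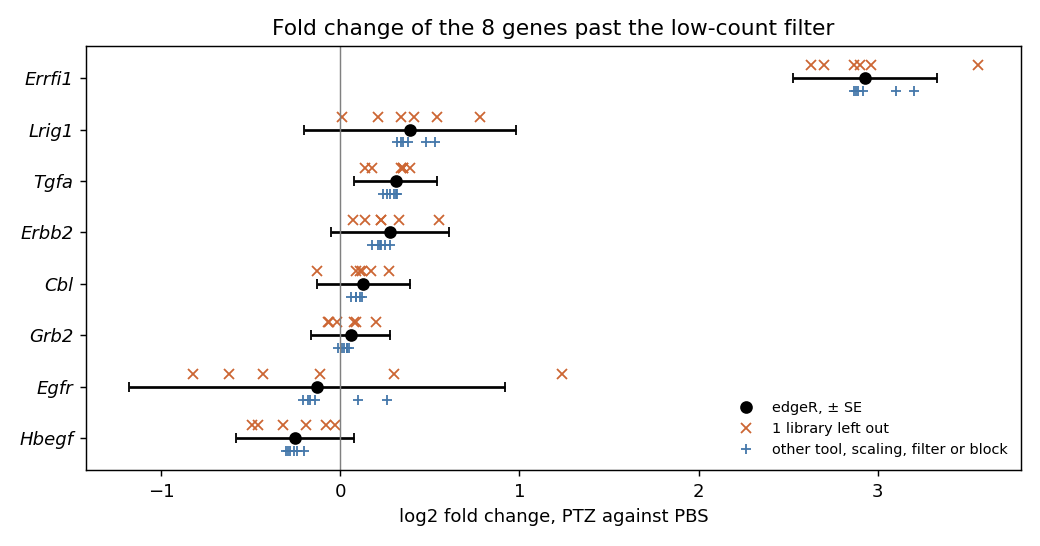
Log2 fold change of PTZ against PBS (horizontal axis) for the 8 members past the low-count filter, as the edgeR value ± SE (black), with 1 library left out in turn (crosses) and under other tools, scalings, no filter or the replicate block (plus signs). Errfi1 stays between 2.63 and 3.56, while Egfr spreads from -0.82 to 1.24.

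Per kilobase of exon, Errfi1 stood in the middle of the members in PBS and at the top in PTZ. On this RPKM scale (CPM per kilobase of merged exons) the PBS order was Grb2 (32.8 ± 3.69), Hbegf (16.0 ± 5.27), Tgfa (6.12 ± 1.06), Errfi1 (5.49 ± 3.60), Erbb2 (3.92 ± 0.351), Cbl (3.85 ± 0.112), Lrig1 (0.899 ± 0.461), Egfr (0.154 ± 0.165), Areg (0.0749 ± 0.082) and Erbb3 (0.0109 ± 0.0189). Neighbours from Tgfa to Cbl overlapped between libraries, as did Egfr, Areg and Erbb3, while Grb2, Hbegf and Lrig1 stood apart from the genes next to them. In PTZ, Errfi1 (41.5 ± 2.97 RPKM) came first and overlapped with Grb2 (34.1 ± 6.49 RPKM). Hbegf followed with 13.5 ± 4.65 RPKM and overlapped with Tgfa (7.60 ± 0.80 RPKM), and the order from Hbegf down to Egfr was otherwise that of PBS.

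RNA levels of the inhibitor were also set against those of its receptor targets, and protein was not measured. The ratio of Errfi1 to Erbb2, in RPKM, was 0.826, 2.53 and 0.896 in PBS libraries 1, 2 and 4 and 7.39, 7.47 and 13.8 in PTZ. Its ratio to Egfr, which had few reads, varied widely, at 8.77, 110.4 and 116 in PBS and 991, 307 and 158 in PTZ. The ratio of Hbegf to Tgfa, in RPKM, was 1.49, 3.02 and 3.65 in PBS and 2.09, 0.974 and 2.43 in PTZ, so that Tgfa was level with Hbegf in PTZ library 2 and below it in the others. Erbb2 exceeded Egfr 10.6 to 134 times over the 6 libraries. Egfr was thus low against Erbb2 in every library, and the name EGF receptor system describes the set by function and not by the level of Egfr.

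**Figure D4:**
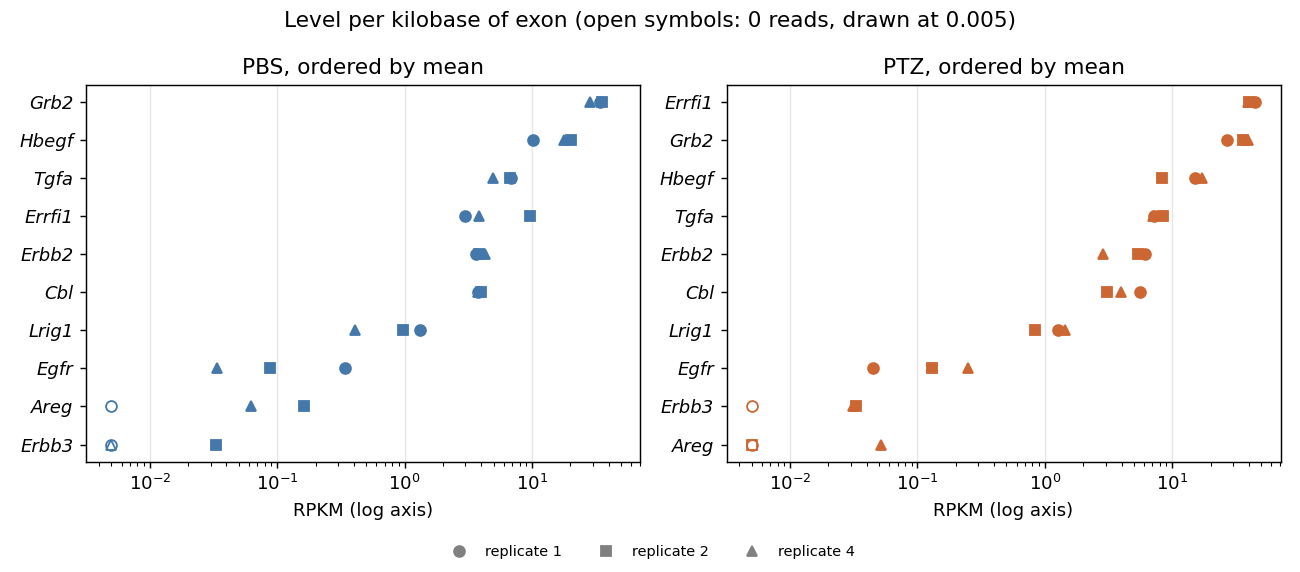
RPKM of the 10 genes (horizontal log axes), ordered by their mean in PBS (left) and in PTZ (right), with symbols for the replicate number and open symbols for libraries with 0 reads. Errfi1 stands in place 4 in PBS, at 5.49 RPKM, and in place 1 in PTZ, at 41.5 RPKM.

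The rest of the pathway was followed with a list of 93 genes in 9 roles, of which 77 passed the filter. In edgeR 0 of them were called in either direction after adjustment over all genes (smallest adjusted p = 0.63), and DESeq2 and limma-voom also called 0 of them. At an unadjusted p under 0.05, 2 were higher and 3 lower, or 2.6% and 3.9%, near the shares of all genes tested (3.83% and 3.38%). Blocking on the replicate number gave 4 and 4, without PBS library 1 they were 1 and 1, and without PBS library 4 they were 0 and 1. The median log2 fold change of the list was 0.12, and 0.03 over all genes tested. The groups did not overlap for 9 genes, of which 5 were higher (6.49%) and 4 lower (5.19%) in PTZ. Differences of this kind were thus about as frequent in the list as among genes in general.

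None of the remaining ligands passed the filter. Egf had 18 reads in the PBS libraries together and 29 in the PTZ libraries, Btc 7 and 3, Ereg 3 and 6 and Nrg1 4 and 9. The neuregulin receptor gene Erbb4 had 10 and 9 reads. Of the ErbB ligands, Hbegf and Tgfa were therefore the ones measured at more than 2 CPM in any library. All 8 genes of ligand shedding passed the filter, with log2 fold changes of -0.28 to 0.79. Adam17, the main protease for Tgfa and Hbegf, stood at 51.0, 55.4 and 59.9 CPM in PBS and 49.6, 39.7 and 70.7 CPM in PTZ (log2 fold change -0.05, SE 0.25). Adam10, which releases EGF and betacellulin, stood at 99.1 ± 25.8 CPM in PBS and 107 ± 17.0 CPM in PTZ (0.12, SE 0.24).

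Adaptors and proximal effectors, the role with most genes tested, held 3 of the 5 list genes at an unadjusted p under 0.05. Of its 20 tested genes 2 were higher (10%) and 1 lower (5%) in PTZ, against 3.83% and 3.38% of all genes tested. Sos1, the exchange factor that Grb2 brings to RAS, stood at 36.2, 30.6 and 15.4 CPM in PBS and 60.3, 54.0 and 42.8 CPM in PTZ, with no overlap (log2 fold change 0.93, SE 0.32, adjusted p = 0.648 in edgeR). Gab1, a docking protein, stood at 47.7, 43.3 and 37.3 CPM in PBS and 70.7, 57.6 and 55.3 CPM in PTZ (0.52, SE 0.22, adjusted p = 0.69 in edgeR). Nck1, an adaptor to the actin cytoskeleton, was lower in every PTZ library, at 122, 122 and 132 CPM in PBS and 103, 76.1 and 85.1 CPM in PTZ (-0.51, SE 0.20, adjusted p = 0.677 in edgeR). Shc1, which links receptors to Grb2, stood at 59.5 ± 7.38 CPM in PBS and 62.2 ± 7.59 CPM in PTZ (0.06, SE 0.22).

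The other genes at that p were lower in PTZ, in the kinase cascade and in receptor turnover. Araf, a RAF kinase, stood at 74.9, 85.6 and 94.2 CPM in PBS and 46.8, 61.4 and 52.1 CPM in PTZ (log2 fold change -0.67, SE 0.21, adjusted p = 0.63 in edgeR). Rnf41, a ubiquitin ligase that lowers ErbB3 protein, stood at 49.3, 39.0 and 47.2 CPM in PBS and 21.7, 31.9 and 31.6 CPM in PTZ (-0.67, SE 0.25, adjusted p = 0.649 in edgeR). For both genes the groups did not overlap. Mapk3, a kinase at the end of the cascade, stood at 195 ± 28.3 CPM in PBS and 193 ± 62.4 CPM in PTZ, with a log2 fold change of -0.01 (SE 0.27). Among genes of receptor turnover and restraint, Cblb, a relative of Cbl, differed by 0.06 on the log2 scale (SE 0.76). For the Lrig1 relatives Lrig2 and Lrig3 the values were 0.69 (SE 0.44) and -0.51 (SE 0.59).

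Several feedback inhibitors of the cascade are, like Errfi1, known to be induced by the signal they restrain. Genes of this role had a median log2 fold change of 0.48, with 7 of 8 tested genes above 0 (52.7% of all genes tested were). At an unadjusted p under 0.05 there were 0 of 8. This role was singled out after its values were seen. The groups overlapped for all 8. Spred1, an inhibitor of RAS activation, stood at 23.0, 19.1 and 19.3 CPM in PBS and 33.8, 20.6 and 40.3 CPM in PTZ (log2 fold change 0.63, SE 0.30). Dusp6, a phosphatase of ERK, stood at 32.8, 28.7 and 35.8 CPM in PBS and 58.1, 18.7 and 36.9 CPM in PTZ (0.22, SE 0.37), with PTZ library 1 the highest and PTZ library 2 the lowest of all 6. Spry2 and Spry4, Sprouty inhibitors of the same cascade, were low, at 0.936 ± 0.228 and 3.04 ± 1.96 CPM in PBS (0.35, SE 0.86 and 0.30, SE 0.78). Of the 6 tested ERK target genes, which hold Ccnd1 and Phlda1 beside transcription factors, 3 were above 0, and their median was -0.22.

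Cdc42, a small GTPase that the Errfi1 protein binds, stood at 767, 616 and 864 CPM in PBS and 600.1, 528 and 644 CPM in PTZ (log2 fold change -0.34, SE 0.25). The high Errfi1 value of PBS library 2 was shared by 2 list genes chosen after their values were seen. Egr1, an immediate early factor downstream of ERK, stood at 174 CPM there and at 10.8 and 7.56 CPM in PBS libraries 1 and 4. Nfkbia, an inhibitor of NF-kB, stood at 1271 CPM there and at 483 and 416 CPM in PBS libraries 1 and 4. In PTZ it stood at 1061, 1237 and 1742 CPM. Not all list genes were high in PBS library 2, and Dusp6 had its lowest PBS value there (28.7 CPM). Egr1 was highest in that saline library, above the 39.8 to 45.0 CPM of the PTZ libraries.

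**Figure D5:**
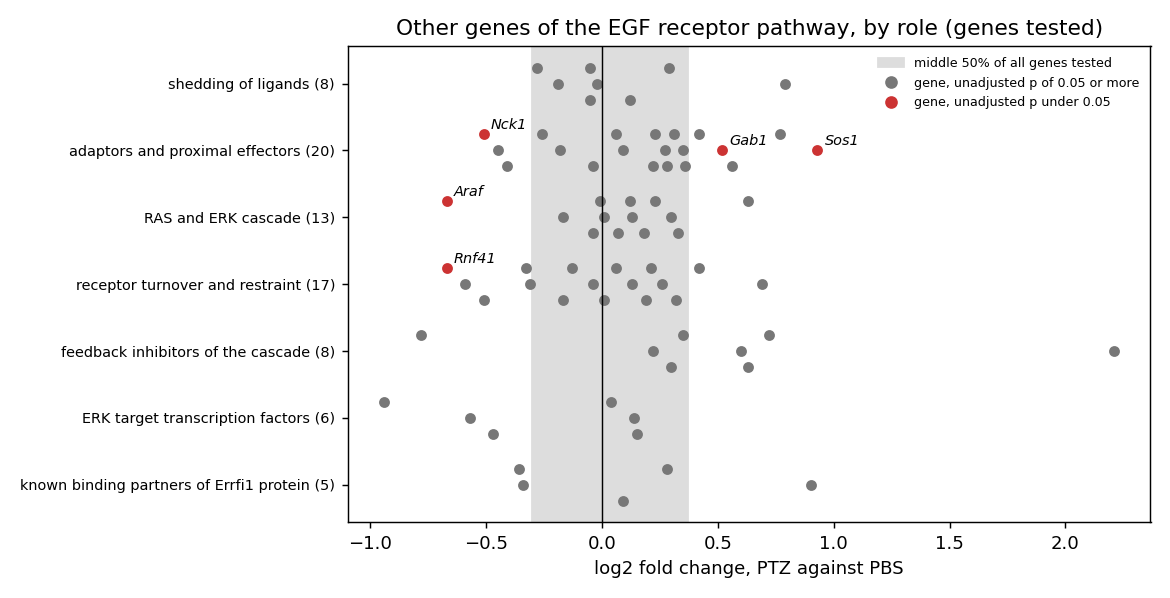
Log2 fold change of PTZ against PBS (horizontal axis) for the 77 tested genes of the pathway list, in rows by role with the number of genes, where red marks an unadjusted p under 0.05 and the grey band spans the middle 50% of all genes tested (-0.30 to 0.37). The 5 named genes lie between -0.67 and 0.93 and on both sides of 0. The row of ERK target transcription factors also holds Ccnd1 and Phlda1, which are not transcription factors.

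The genes whose levels followed Errfi1 most closely were Csrnp1, Usp22, Kcp, Prrc2c and Scarb2, by Pearson r of log2(CPM + 0.5) over the 6 libraries among 9728 genes, with r of 0.989, 0.987, 0.986, 0.985 and 0.984. The libraries fall into separate groups for Errfi1, so r mainly ranks genes by how cleanly the groups differ, and it is a description only. Csrnp1, a nuclear protein of the immediate early response, stood at 27.4, 56.0 and 24.6 CPM in PBS and 113, 121 and 108 CPM in PTZ, with PBS library 2 above the other PBS libraries as for Errfi1. Usp22, a deubiquitinase, stood at 49.1, 57.8 and 51.3 CPM and 72.1, 68.9 and 65.5 CPM. The order of the 6 libraries was the same as for Errfi1 in Usp22 and Prrc2c, and in 34 of the 9728 genes in all. The most opposite genes were Cnp (r = -0.997), BC031181 (-0.991) and Rab27a (-0.987). Cnp, an oligodendrocyte marker that other cells also express, stood at 39.8, 34.4 and 37.3 CPM in PBS and 27.8, 27.9 and 28.0 CPM in PTZ.

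Among the members, Tgfa had the highest r with Errfi1 (0.69) and Hbegf the lowest (-0.10).

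Markers of other cell types also differed between the libraries. All 9 tested markers of pericytes and smooth muscle had a positive log2 fold change (median 1.18), and their list of 10 summed to 199 to 562 CPM in PBS and 338 to 1074 CPM in PTZ. All 6 fibroblast markers were positive (median 1.23), with sums of 88.4 to 145 CPM in PBS and 84.4 to 270.2 CPM in PTZ. In PTZ library 2 the first sum was 338 CPM, inside the PBS range, and the second was 84.4 CPM, below it, and Errfi1 stood at 145 CPM there. The part of RNA from these cells in the values of Errfi1 and the other members was not tested. The 9 microglial and macrophage markers were all negative (median -0.30), with sums of 2315 to 2822 CPM in PBS and 1558 to 2339 CPM in PTZ. Of the 3 neutrophil markers tested 1 was positive (median -0.92), and the list of 4 summed to 149.9 to 371 CPM in PBS and 54.0 to 304 CPM in PTZ. Red cell genes, 5 in number, summed to 6577 to 10852 CPM in PBS and 5788 to 11683 CPM in PTZ (median -0.05, 0 positive). In bulk RNA, a change in the number of cells of a type and a change in RNA per cell cannot be told apart.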

How the data were processed

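Raw counts for each Ensembl gene in 6 libraries were deposited by the authors as a matrix, whose 5 summary rows name no gene (16.1% to 22.9% of reads) and were left out. They also deposited a scaled signal per library, equal to the counts divided by 1 factor per library (100% of values whole within 0.01 reads), used here only as an alternative scaling. TopHat2 2.1.1, HTSeq, CASAVA, edgeR and the build GRCm38 are listed, without roles, in the submitters' processing notes, and neither annotation release nor strand setting is given. Symbols were matched for 53274 gene IDs and coordinates for 53360 in GENCODE M21.

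Counts were filtered with filterByExpr (minimum count 10, minimum total 15; 13768 of 34777 genes with any read were kept), TMM-scaled (factors from 0.864 to 1.14), then tested in edgeR 4.0.16 (quasi-likelihood, group as the only factor, 2-sided, Benjamini-Hochberg, threshold 0.05) in R 4.3.3. SE is the fold change divided by the root of its F statistic. Levels are mean ± SD over 3 libraries. The biological coefficient of variation was 0.47. The scripts were tested on simulated data. Alternatives used DESeq2 1.42.0, limma 3.58.1, other scalings, no filter, a replicate block and leaving out each library.

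The members and lists were chosen with earlier results of these data known. Named were all members, list genes at an unadjusted p under 0.05, a fixed set of list genes (of which 1 is not reported here), and the 5 genes most like and 3 most unlike Errfi1 (mean of at least 5 CPM, predicted genes left out). Spred1, Egr1 and Nfkbia were added after their values were seen, as were Slc1a2, Aqp4 and the other astrocyte markers named singly. Deviations from group means correlated at 0.269, 0.323 and 0.307 between libraries of equal number, taken from the titles, over the 10115 genes of at least 5 CPM, so libraries of equal number were treated as pairs in the blocked fit. Promoter windows came from RefSeq.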

Additional observations from a re-analysis of the deposited data

How the results depend on the processing

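Over 12 alternatives Errfi1 kept its direction, with log2 fold changes of 2.87 to 3.20 under other tools, scalings, no filter or the block and of 2.63 to 3.56 with 1 library left out, the highest without PBS replicate 2. Signs also held in all 12 for Erbb2, Hbegf, Tgfa, Lrig1 and the pathway median (0.04 to 0.15), whereas Egfr changed sign in 4, Grb2 in 4 and Cbl in 1. The median of the feedback inhibitors ranged from 0.39 to 0.60. Over all genes, DESeq2 called 53 higher and 23 lower, limma-voom 1 and 0, and the fit with no low-count filter 77 and 44, while leaving out a library gave 0 to 8 higher (8 without PBS replicate 2) and 0 lower. Of the pathway list, 0 genes were called in every alternative. At an unadjusted p under 0.05 the 2 higher list genes became 1 with the authors' scaling, 1 with upper-quartile scaling and 0 to 3 with a library left out, while the 3 lower ones became 4 with either scaling or no filter and 1 to 3 with a library left out. With the replicate block there were 4 of each, and the block changed no other count of calls by over 1.5 times. With the longest transcript as the length, 6 of 9 neighbouring pairs of members kept their order. By Spearman's rho 2 of the 5 genes most like Errfi1 were at the highest value, which many genes share. The causes were not tested. Depth limits Areg, Erbb3 and the remaining ligands, which had few reads.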
